A study of Mus musculus with 48 samples.

Results

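The dorsal dentate gyrus of kainate-injected C57BL/6J mice was compared between the injected and the contralateral hemisphere 14 days after injection. Kainate, a glutamate receptor agonist that triggers status epilepticus, had been placed into the hippocampus of 1 side (85 nl per the methods). The ipsilateral dentate gyrus was termed the epileptogenic zone (EZ) and the contralateral one the peri-ictal zone (PIZ). The comparison held 8 of the 48 libraries of the series, 1 EZ and 1 PIZ library from each of 4 mice, which carry the numbers 27, 36, 14 and 40. These were all libraries that the sample records give as kainate and day 14, and the 2 sides were matched by the mouse number in the library names. Reference groups were 4 mice injected with saline and taken at day 14, and 4 kainate mice each of day 7 and day 3, all with both sides. All were wild-type mice of the same strain, 2 male and 2 female per group, and the series design gives an age of 6 to 8 weeks while the methods give 8 to 10 weeks. Every kainate mouse had a behavioral seizure per the methods, and the PIZ of a kainate mouse was therefore not an unaffected tissue. The question of the comparison is which genes still differ between the directly injected and the opposite dentate gyrus at the end of the 14 days followed.

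In this model the injected hippocampus loses hilar and pyramidal neurons, its astrocytes and microglia become reactive, and its granule cell layer disperses, while the opposite side is reached through the seizures. Activated microglia shed part of their resting profile and turn on lysosomal, phagocytic and antigen-presenting genes. Interferons act through STAT and IRF factors, which bind the interferon-stimulated response element (ISRE) and the gamma-activated site (GAS) in front of their target genes, and MHC class I, complement and many chemokine genes are among these targets.

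The 8 libraries held 17762656 to 23620357 counts. Prox1, the transcription factor that marks granule cells, lay between 183 and 294 CPM (counts scaled by library size) in the 8 libraries, with a fitted log2 fold change (log2FC) of 0.06 ± 0.17 (± SE, 4 mice per side). Each SE comes from the fit of all 48 libraries and is not the spread of the 4 mice. Of 12 granule cell genes 7 had a negative log2FC, and 0 were called. Their median difference was -0.77, 0.02, -0.15 and 0.40 in mice 27, 36, 14 and 40, and their summed level ran from 908 to 1851 CPM in the EZ and from 1197 to 1439 CPM in the PIZ. Mouse 27 stood apart. The median absolute EZ minus PIZ difference over all tested genes was 0.47 on the log2 CPM scale in mouse 27 and 0.14, 0.15 and 0.20 in mice 36, 14 and 40. Values of the leading genes are therefore given by mouse, and the main counts also without mouse 27. Since these are bulk tissues, fewer cells of a type and less RNA per cell cannot be told apart.

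At day 14, 111 genes were higher in the EZ than in the PIZ of the same mice and 0 genes were lower (edgeR quasi-likelihood test with mouse as a block, adjusted p under 0.01 and fold change (FC) over 1.5). The raised genes were 0.519% of the 21390 genes tested, and the lower ones 0%. Among them were genes of activated microglia, complement, the interferon response, antigen presentation and chemokine signaling. Their log2FC ran from 1.19 to 7.46 with a median of 2.58, against a median of -0.01 over all genes. At an unadjusted p under 0.05, 2241 genes were higher (10.5%) and 1393 were lower (6.51%), and without mouse 27 the counts were 637 higher (2.94% of the 21688 genes then tested) and 320 lower (1.48%). All 4 mice had the higher value in the EZ for 110 of the 111 genes, beside 11.8% of all genes. All 4 EZ libraries lay above all 4 PIZ libraries for 60 of the 111, beside 3.07% of all genes. Since the 111 genes were called on these same mice, both counts follow in part from that selection. By mouse, the median difference of the 111 genes was 3.71 in mouse 27, 1.15 in mouse 36, 1.71 in mouse 14 and 1.82 in mouse 40. Mouse 27 had the largest difference for 108 of the genes and mouse 40 for the other 3.

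The number of calls depended on which mice entered. Without mouse 27, 4 genes passed the threshold, namely Cst7, Clec7a, C3 and Lgals3bp, and the median log2FC of the 111 genes was 1.85, with all 111 positive and 109 at an unadjusted p under 0.05. The 111 genes were selected with mice 36, 14 and 40 included, so these values are not independent of the selection. Without mouse 14, 58 genes were called, without mouse 40, 40, and without mouse 36, 149. With only the 8 libraries of this comparison in the model, 0 genes passed in edgeR (smallest adjusted p = 0.23). There 1362 of the 18970 genes fitted had an unadjusted p under 0.05, and 969 of these were higher in the EZ. The gene not higher in all mice was Ccn5, a matricellular protein of the CCN family, with 554, 4, 1 and 0 counts in the EZ of mice 27, 36, 14 and 40 and a total of 3 counts in the PIZ, so its call rests on mouse 27. It was singled out after its values were seen.

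**Figure D1:**
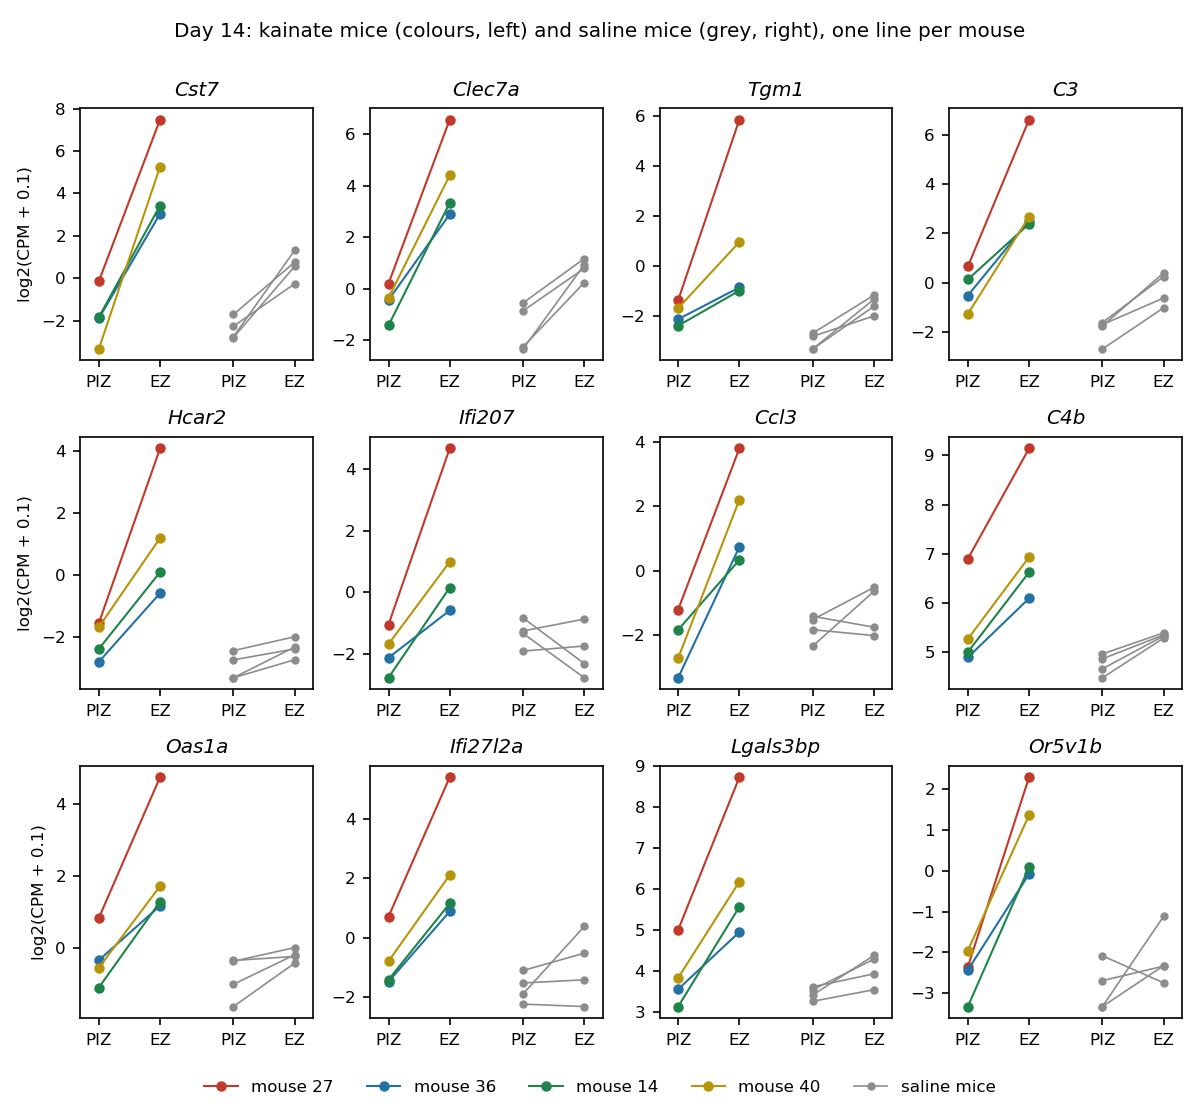
Levels at day 14 of the 12 genes with the lowest p values, PIZ beside EZ, on a log2(CPM + 0.1) axis, with 1 line per mouse: kainate mice 27, 36, 14 and 40 in color on the left of each panel and 4 saline mice in gray on the right. All kainate lines rise from PIZ to EZ and mouse 27 ends highest in every panel, and the lines of Cst7, Clec7a, Tgm1, C3, Hcar2, C4b, Oas1a and Lgals3bp also go up in all 4 saline mice.

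The gene with the smallest p was Cst7, which encodes cystatin F, an inhibitor of lysosomal cysteine proteases made by activated microglia (chromosome 2, 150412284 to 150420864, GRCm39). Its EZ level was 178, 8.15, 10.7 and 38.2 CPM in mice 27, 36, 14 and 40, and its PIZ level was 0.812, 0.171, 0.181 and 0 CPM. Every EZ library was far above every PIZ library, with a log2FC of 7.46 ± 0.46 (adjusted p = 3.76e-09). Clec7a, the phagocytic receptor dectin (chromosome 6, 129438554 to 129449742), had 94.4, 7.31, 9.98 and 21 CPM in the EZ and 1.05, 0.640, 0.272 and 0.683 CPM in the PIZ. The groups did not overlap, and the log2FC was 5.22 ± 0.52 (adjusted p = 1.58e-05). Itgax, an integrin subunit of activated microglia and dendritic cells, had 22.7, 2.87, 4.49 and 11.8 CPM in the EZ against 0.315 to 1.29 CPM in the PIZ, without overlap (log2FC 3.63 ± 0.52). In the EZ level of these 3 genes mouse 40 ranked directly after mouse 27.

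C3, the central component of the complement cascade (chromosome 17, 57510964 to 57535155), was at 98.5, 5.62, 5.14 and 6.31 CPM in the EZ and at 1.48, 0.598, 0.997 and 0.315 CPM in the PIZ. The groups were separate, with a log2FC of 4.23 ± 0.47 (adjusted p = 5.08e-05). C4b, the complement component that forms the C3 convertase with C2, was at 564, 68.1, 98.5 and 122 CPM in the EZ and at 119, 29.6, 31.9 and 38.4 CPM in the PIZ. Here the sides overlapped, since the PIZ of mouse 27 exceeded the EZ of mice 36 and 14, but within each mouse the EZ was 1.20 to 2.25 higher in log2 CPM and the log2FC was 1.69 ± 0.21 (adjusted p = 0.000188). C4b has a near-identical neighbor, C4a, which was also called, and the counting could split reads between them.

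Tgm1, a transglutaminase known from cornified epithelia, showed how far mouse 27 could lie from the rest, with 57.5, 0.450, 0.403 and 1.84 CPM in the EZ and 0.0906 to 0.287 CPM in the PIZ. The groups did not overlap (log2FC 5.91 ± 0.61, adjusted p = 1.68e-05). Without mouse 27 Tgm1 was no longer called (log2FC 2.54, adjusted p = 0.06), nor with only the kainate libraries fitted (5.68, adjusted p = 0.0277), and its log2FC was 3.72 by DESeq2 and 3.32 by limma-voom. Hcar2, a G protein-coupled receptor for hydroxycarboxylic acids on microglia and macrophages, had 16.7, 0.562, 0.958 and 2.17 CPM in the EZ and at most 0.239 CPM in the PIZ (log2FC 4.72 ± 0.57, adjusted p = 0.000154). Lgals3bp, a secreted galectin-binding glycoprotein, was abundant, with 424, 30.9, 47.4 and 72.5 CPM in the EZ and 32.1, 11.7, 8.70 and 14.2 CPM in the PIZ. Its sides overlapped only through the PIZ of mouse 27 (log2FC 2.50 ± 0.32 with adjusted p = 0.000188), and it was among the 4 genes called without that mouse. Or5v1b, an olfactory receptor gene, was counted at 198 reads over the 4 EZ libraries and 7 over the 4 PIZ libraries, with no PIZ library above 3, a pooled ratio of 29.4 (95% exact interval 14.0 to 74.2, counting error only).

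The interferon response list held 24 genes, all tested, of which 13 rose (beside 0.519% of all genes) and 0 fell, and 23 were higher in all 4 mice (beside 11.8%). Its median log2FC was 1.61, and by mouse the median difference was 2.63, 0.86, 1.23 and 1.23 in mice 27, 36, 14 and 40, against 0.04 to 0.29 in the 4 saline mice. The strongest member was Zbp1, a sensor of Z-form nucleic acids, at 15.6, 0.450, 0.504 and 1.34 CPM in the EZ and at most 0.573 CPM in the PIZ (log2FC 4.33 ± 0.57, adjusted p = 0.0003). Ifi27l2a, an interferon-induced mitochondrial protein, was at 42.6, 1.74, 2.12 and 4.22 CPM in the EZ and 0.256 to 1.53 CPM in the PIZ (log2FC 3.85 ± 0.49). Oas1a, an oligoadenylate synthetase that senses double-stranded RNA, was at 26.7, 2.14, 2.32 and 3.17 CPM in the EZ and 0.362 to 1.67 CPM in the PIZ (log2FC 2.88 ± 0.36). The EZ and PIZ libraries were separate for the latter pair and overlapped for Zbp1, again through the PIZ of mouse 27. Irf7, the master regulator of type I interferon expression, rose with a log2FC of 2.45 ± 0.41 (adjusted p = 0.00291), from 1.59 to 4.78 CPM in the PIZ to 5.0 to 75.5 CPM in the EZ. Stat2, a signal transducer upstream of these genes and among the most abundant list members, did not pass the test, with a log2FC of 0.25 ± 0.17 (adjusted p = 0.44). Outside the list, Ifi207, a member of the HIN family of DNA sensors, was at 25.4, 0.562, 1.01 and 1.88 CPM in the EZ and 0.0453 to 0.382 CPM in the PIZ, with no overlap (log2FC 4.75 ± 0.59, adjusted p = 0.000188).

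The stretches upstream of the start that hold the ISRE core are shown for raised members, because these letters are what the interferon-driven factors bind. RefSeq promoter windows (GRCm38.p6, 250 bases before to 50 after the start, a different build from the GRCm39 counts) were found for 10 of the 13 raised interferon genes and 4 of the 5 raised MHC class I genes. Each stretch of 30 bases is written 5′ to 3′ on the strand of the gene, and capitals mark GAAANNGAA or its reverse complement, with overlapping matches joined.

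Oas1a, chr5:120907526-120907555, minus strand: cccttctcggGAAATGGAAACTGAAaatct
Irgm1, chr11:48871428-48871457, minus strand: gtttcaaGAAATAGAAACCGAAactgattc
Igtp, chr11:58199512-58199541, plus strand: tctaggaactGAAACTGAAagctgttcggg
Bst2, chr8:71537580-71537609, minus strand: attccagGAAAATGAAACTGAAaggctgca
Gbp3, chr3:142559993-142560022, plus strand: acacagtTTCAGTTTCTATTTCccagatcc
Gbp2, chr3:142620595-142620624, plus strand: ctcttttagtTTCACTTTCactgtcttaag
Ifit3, chr19:34583417-34583446, plus strand: tactttcctcTTCCCTTTCacaaacactga
B2m, chr2:122147538-122147567, plus strand: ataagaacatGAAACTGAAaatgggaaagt

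The marked run ended 6 bases before the annotated start in Oas1a and 131 bases before it in B2m, and Ifit3 held 3 such runs, of which the one nearest to the start is shown. These genes differed in size of change, with log2FC of 2.88 for Oas1a, 1.82 for Bst2, 1.81 for Gbp2, 1.73 for Ifit3, 1.62 for B2m and 1.34 for both Gbp3 and Irgm1. The ISRE core, searched on both strands, was present in 13 of the 18 interferon list genes with a window (72.2%), in 3 of 10 MHC class I genes, in 29 of 74 raised genes with a window (39.2%), and in 8.94% of 12819 tested genes with a window. The GAS letters TTCNNNGAA, which can overlap the ISRE core, were in 5 of the 18 interferon genes (27.8%), 1 of 10 MHC class I genes, 13.5% of raised genes and 8.32% of tested genes. A match is a description of the letters and not a measured binding site.

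Of 12 MHC class I presentation genes, 5 rose (beside 0.519% of all genes) and 0 fell, 11 were higher in all 4 mice (beside 11.8%), and the median log2FC was 1.30. B2m, the light chain that every class I molecule needs, was at 921, 140, 149 and 192 CPM in the EZ and 128, 71.9, 65.1 and 66.6 CPM in the PIZ. All EZ libraries exceeded all PIZ libraries (log2FC 1.62 ± 0.27, adjusted p = 0.00247). The heavy chains H2-D1 and H2-K1 rose by log2FC of 1.71 ± 0.32 and 1.49 ± 0.28, with 59.8 to 503 and 35.5 to 306 CPM in the EZ, and for both genes the PIZ of mouse 27 exceeded the EZ of mice 36 and 14. Nlrc5, the transactivator of class I genes, was at 22.1, 2.36, 3.63 and 4.80 CPM in the EZ and 3.87, 1.02, 0.861 and 1.10 CPM in the PIZ (log2FC 2.04 ± 0.34). Heavy chain genes of this family are close relatives, and reads assigned to single members are uncertain. Among 7 MHC class II presentation genes, H2-DMb1, a chaperone of peptide loading, was the one that rose (beside 0.519% of all genes). It went from 0.453 to 1.72 CPM in the PIZ to 1.80 to 10.5 CPM in the EZ (log2FC 1.85 ± 0.35, adjusted p = 0.00678). The list median was 1.49, and this was the one immune list in which mouse 14 (1.77) exceeded mouse 27 (1.33). Saline mice had list medians of -0.12 to 0.81, and kainate mouse 36 had 0.85. Cd74, the invariant chain and most abundant member, was at 25.5, 2.98, 6.76 and 5.31 CPM in the EZ and 12.3, 1.02, 1.13 and 2.47 CPM in the PIZ without passing the test (log2FC 1.49 ± 0.65, adjusted p = 0.259).

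Of 14 complement genes, C3 and C4b rose (0.519% of all genes did), none fell, 13 were higher at an unadjusted p under 0.05 (10.5% of all genes), and the median log2FC was 1.62, or 0.84 without mouse 27. By mouse the median difference was 3.41, 0.55, 0.90 and 1.25 in mice 27, 36, 14 and 40, and 0.30 to 0.60 in the saline mice, so that saline mouse 39 exceeded kainate mouse 36. C1qa and C1qb, which start the classical cascade and are made by microglia in brain, were at 755 and 792 CPM in the EZ of mouse 27, at 58.7 to 132 and 67.7 to 150 CPM in the EZ of the other mice, and at 33 to 60.6 and 41.5 to 71.8 CPM in the PIZ. They did not pass the test (log2FC 1.86 ± 0.41 and 1.66 ± 0.40, adjusted p = 0.0187 and 0.0321). Of 21 genes of disease-associated microglia, 6 rose (28.6%, beside 0.519% of all genes), 0 fell and 20 were higher in all 4 mice (beside 11.8% of all genes). Ccl6, a chemokine of myeloid cells on this list, was at 38.7, 4.05, 3.88 and 10.6 CPM in the EZ and 0.812, 1.41, 1.68 and 1.58 CPM in the PIZ (log2FC 2.72 ± 0.47). Its sides did not overlap, and its PIZ level was lowest in mouse 27. Ctsd, a lysosomal protease, and Apoe, a lipid carrier, were the most abundant members and did not pass, with Ctsd at 5369, 476, 550 and 1053 CPM in the EZ against 273 to 355 CPM in the PIZ (log2FC 1.81 ± 0.42, adjusted p = 0.0265) and Apoe at 4617, 937, 1156 and 1523 CPM in the EZ against 837 to 974 CPM in the PIZ (log2FC 0.87 ± 0.31, adjusted p = 0.171, and log2FC 0.44 without mouse 27).

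The 12 homeostatic microglia genes were all higher in all 4 mice (beside 11.8% of all genes), and none was called. All 12 were higher at an unadjusted p under 0.05 (beside 10.5% of all genes). The median log2FC was 0.94, or 0.52 without mouse 27. By mouse the median difference was 2.27, 0.31, 0.61 and 0.68 in mice 27, 36, 14 and 40, and 0.14 to 0.27 in the saline mice. Aif1, which encodes the microglial marker protein IBA, was at 57.4, 7.25, 8.67 and 9.27 CPM in the EZ and 3.71 to 6.55 CPM in the PIZ (log2FC 1.57 ± 0.35, adjusted p = 0.0189). Csf1r, the survival receptor of microglia, and the purinergic-like receptor Gpr34 had log2FC of 0.96 ± 0.27 and 1.12 ± 0.28 (adjusted p = 0.0796 and 0.0449). The summed level of this list was 582 to 3118 CPM in the EZ, 430 to 519 CPM in the PIZ, 475 to 508 CPM in the saline EZ and 394 to 442 CPM in the saline PIZ. Its part in the rise of the immune lists was not tested.

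Chemokines and cytokines had the largest list median, 2.73 over 16 tested genes, of which 5 rose (beside 0.519% of all genes) and 0 fell, and mouse 27 (3.84) lay well above mice 36, 14 and 40 (0.82, 0.90 and 1.28). Ccl3, a chemoattractant for monocytes, was at 13.8, 1.57, 1.16 and 4.51 CPM in the EZ and 0.334, 0, 0.181 and 0.0525 CPM in the PIZ (log2FC 5.04 ± 0.63, adjusted p = 0.000188). Cxcl10, a ligand of the T cell receptor CXCR3 that interferon induces, was at 26.9, 1.74, 2.97 and 2.76 CPM in the EZ and 0.299 to 1.24 CPM in the PIZ (log2FC 3.31 ± 0.56, adjusted p = 0.00291). Its relative Cxcl9 was counted at 126, 7, 14 and 5 reads in the EZ and 2, 0, 1 and 0 reads in the PIZ, so that most of its reads came from mouse 27, and it lost its call without mouse 27, 14 or 40 (adjusted p = 0.363, 0.0127 and 0.0134). Cxcl16, a membrane-bound chemokine, rose with a log2FC of 2.60 ± 0.48. None of these 4 overlapped between sides. Cx3cl1, the neuronal chemokine that binds the microglial fractalkine receptor, was level in all mice (431 to 511 CPM in the EZ, 455 to 467 CPM in the PIZ, log2FC 0.01 ± 0.12), and Il33, an alarmin of glia, had a log2FC of 0.82 ± 0.25 without passing (adjusted p = 0.0963).

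Of 16 genes fixed as markers of infiltrating leukocytes, 7 had enough counts to be tested, and the T, NK and B cell genes Cd3e, Cd3g, Cd8a, Cd8b1, Cd2, Nkg7, Gzmb and Ms4a1 were not among them. Ccl5, a chemokine of T cells and activated myeloid cells, was the one of the 7 that rose (beside 0.519% of all genes). It was at 7.57, 0.731, 0.756 and 0.835 CPM in the EZ and 0.0854 to 0.430 CPM in the PIZ (log2FC 3.44 ± 0.55, adjusted p = 0.00205). The summed level of the 7 was 7.36 to 30.8 CPM in the EZ and 6.58 to 8.31 CPM in the PIZ. In saline mice it was 6.74 to 10.8 CPM in the EZ and 7.21 to 9.21 CPM in the PIZ. By mouse the median difference was 2.77, 0.56, 0.62 and 0.51 in mice 27, 36, 14 and 40. Saline mice had -0.09 to 0.86, and saline mouse 28 (0.86) exceeded kainate mice 36, 14 and 40. Lag3, a receptor of T cells that is also expressed by microglia and neurons, rose from 7.66 to 18.1 CPM in the PIZ to 133, 17.3, 25.2 and 30.5 CPM in the EZ (log2FC 1.89 ± 0.28, adjusted p = 0.00116). Its sides overlapped by the PIZ of mouse 27.

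Astrocyte genes divided by list. Of 20 reactive astrocyte genes, 5 rose (beside 0.519% of all genes), 0 fell and 19 were higher in all 4 mice (beside 11.8%), with a median log2FC of 1.39. Of 14 homeostatic astrocyte genes 0 were called, 6 were higher in all 4 mice, and the median was 0.14. At an unadjusted p under 0.05, 6 of the homeostatic genes were higher (beside 10.5% of all genes) and 1 was lower (beside 6.51%). Gfap, the intermediate filament of reactive astrocytes, was at 5873, 728, 843 and 1502 CPM in the EZ and 1326, 405, 386 and 470 CPM in the PIZ. The PIZ of mouse 27 exceeded the EZ of mice 36 and 14, and within mice the EZ was higher by 0.85 to 2.15 in log2 CPM (log2FC 1.45 ± 0.24, adjusted p = 0.00214). Timp1, an inhibitor of matrix metalloproteinases, was at 16.0, 0.225, 0.504 and 0.794 CPM in the EZ and 0.0453 to 0.812 CPM in the PIZ (log2FC 3.71 ± 0.50, adjusted p = 0.000331), with overlap through the PIZ of mouse 27. It lost its call with limma-voom (log2FC 2.58, adjusted p = 0.104) and without mouse 27 (log2FC 2.34, adjusted p = 0.549). Aspg, an asparaginase, and Gbp2, an interferon-induced GTPase that is also on the interferon list, rose with log2FC of 1.41 ± 0.24 and 1.81 ± 0.33. Serpina3n, a secreted protease inhibitor, did not pass, at 1140, 83.6, 106 and 129 CPM in the EZ and 63.5 to 161 CPM in the PIZ (log2FC 1.16 ± 0.32, adjusted p = 0.0629). The glutamate transporter Slc1a2 stayed between 3054 and 3984 CPM in all 8 libraries (log2FC -0.03 ± 0.14), and the water channel Aqp4 had a log2FC of 0.77 ± 0.17 (adjusted p = 0.0206) with 995 CPM in the EZ of mouse 27 and 230 to 264 CPM in that of the others.

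**Figure D2:**
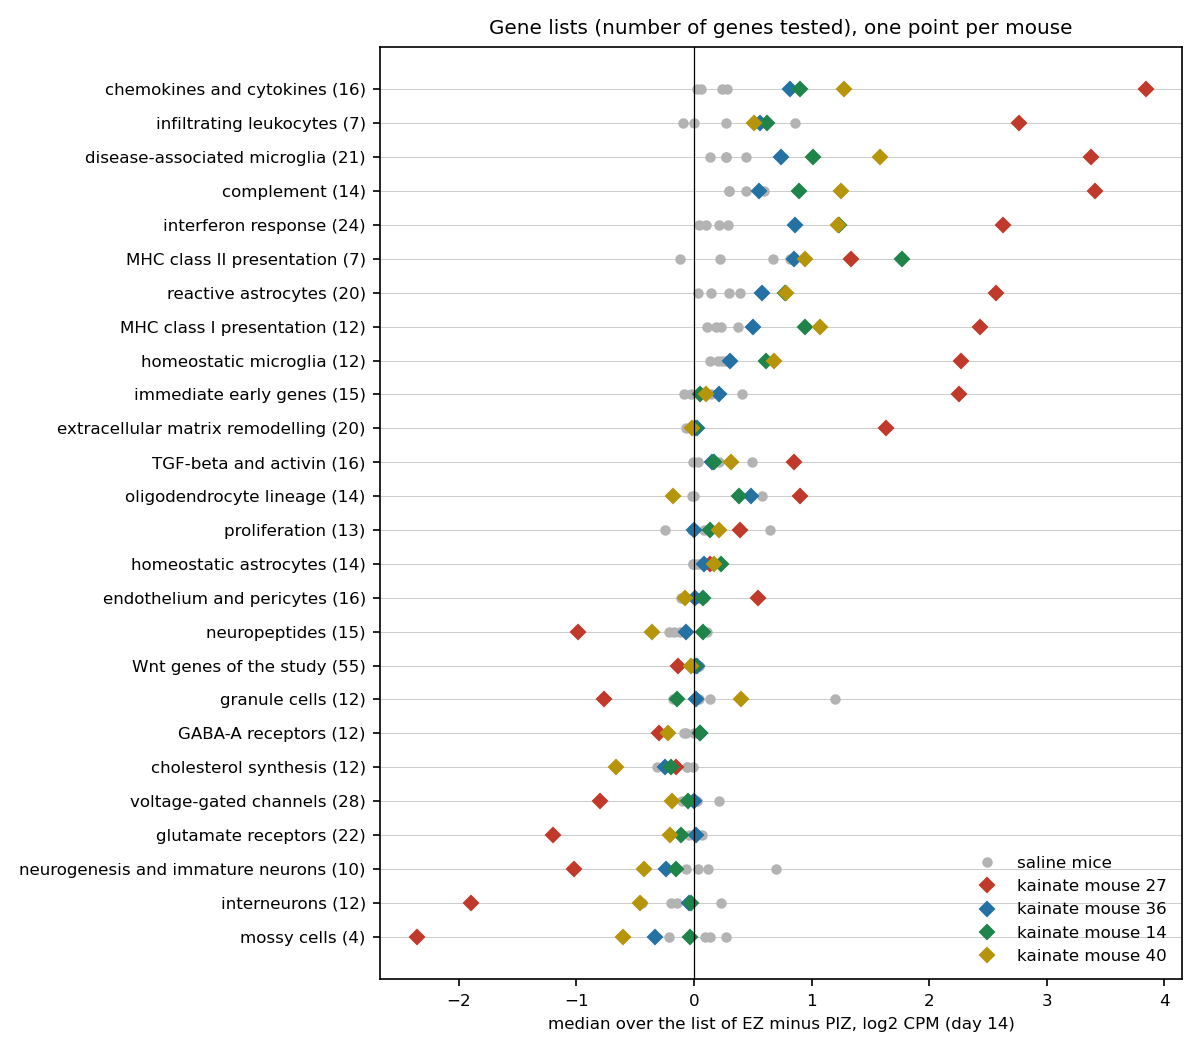
Median EZ minus PIZ difference (log2 CPM, horizontal axis) over each of 26 gene lists at day 14, 1 point per mouse, with kainate mice 27, 36, 14 and 40 as colored diamonds and the 4 saline mice as gray circles; the number of genes tested is in parentheses. Immune and reactive astrocyte lists lie to the right in all 4 kainate mice, and mouse 27 lies farthest out in most lists, to the right for immediate early genes (2.25) and to the left for interneurons (-1.89) and mossy cells (-2.36).

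These list counts depended on single mice. Without mouse 27 the interferon list had 0 called genes, MHC class I 0, complement 1, disease-associated microglia 2, chemokines and cytokines 0 and reactive astrocytes 0. Without mouse 14 the same lists had 4, 1, 2, 4, 3 and 3, and without mouse 40 they had 4, 0, 2, 3, 1 and 1. The median log2FC without mouse 27 was 1.10 for the interferon list, 0.88 for MHC class I, 1.18 for disease-associated microglia, 1.52 for chemokines and cytokines, 0.75 for reactive astrocytes and 0.75 for infiltrating leukocytes. H2-DMb1 lost its call with any 1 of the 4 mice left out, and Ccl5 lost it without mouse 27.

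Several raised genes were neighbors in the genome. With at most 1000000 bases between successive genes, 40 of the 111 lay in 9 groups of 3 or more (GRCm39). The share over all genes was not computed for this grouping. The largest of the 9 groups held 10 genes of the major histocompatibility complex on chromosome 17 from 34214987 to 35662749, namely H2-K1, H2-DMb1, Psmb8, C4b, C4a, H2-D1, H2-Q4, H2-Q5, H2-Q6 and H2-Q7. Ifi206, Ifi213, Ifi209, Ifi207 and Ifi204 filled 173296051 to 173594610 on chromosome 1, and Slfn9, Slfn8, Ccl5, Ccl6 and Ccl3 lay on chromosome 11 between 82868552 and 83540191. The other groups included the Trim genes of chromosome 7 (Trim34a, Trim5, Trim30a and Trim30d) and the Oas genes of chromosome 5 (Oas3, Oas1g and Oas1a). Members of such clusters are near-identical copies in part, so that single values within a cluster are uncertain. In the group on chromosome 10, Gm49339 overlaps Lilrb4b and Lilrb4a on the same strand. Of the 111 genes, 107 were protein coding and 3 were long noncoding RNAs, and 37 belonged to a list used here.

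No neuronal list had a called gene in either direction. The values of the interneuron, glutamate receptor and voltage-gated channel lists came largely from mouse 27. The 12 interneuron genes had a median difference of -1.89 in mouse 27, -0.05 in mouse 36, -0.03 in mouse 14 and -0.46 in mouse 40. Slc32a1, the vesicular GABA transporter, was at 2.08 CPM in the EZ of mouse 27 against 35.2 CPM in its PIZ, and at 23.6 to 27.1 CPM in the EZ and 28.5 to 33.5 CPM in the PIZ of the others (log2FC -0.99 ± 0.55, adjusted p = 0.347). Nos1, the neuronal nitric oxide synthase of a class of interneurons, was at 4.76 and 88.5 CPM in the EZ and PIZ of mouse 27 and at 80.2 to 114 and 125 to 126 CPM in the others (log2FC -1.11 ± 0.51, adjusted p = 0.276). Gad1, which synthesizes GABA and is also made by granule cells after seizures, stood at 336 CPM in the EZ and 282 CPM in the PIZ of mouse 27 (log2FC 0.01 ± 0.16). Calb2 (calretinin), of mossy cells and immature granule cells, was at 2.36 CPM in the EZ and 45.3 CPM in the PIZ of mouse 27 and at 10.7 to 13.2 and 15.6 to 20 CPM in the others (log2FC -1.25 ± 0.71, adjusted p = 0.358).

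Markers of other hippocampal fields also differed between mice. The medians of 6 CA1 pyramidal genes were -2.50, 0.16, 0.71 and -1.34 in mice 27, 36, 14 and 40, and those of 8 CA3 and CA2 pyramidal genes were -1.97, 0.32, -0.38 and -0.14. The summed CA1 level was 106 to 551 CPM in the EZ and 318 to 369 CPM in the PIZ, and that of CA3 and CA2 genes 199 to 392.4 and 341 to 466 CPM, with none of either list called. The 4 choroid plexus genes tested of 8 had a median of -2.67 in mouse 27 and -0.22 to 0.02 in the others, and their summed level was 7.75 to 31.7 CPM in the EZ and 23.9 to 59.7 CPM in the PIZ. Genes of the thalamus, meninges and blood had list medians of 0.11, -0.07 and 0.04. The part of these tissues in the neuronal values was not tested.

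Of 10 genes of neurogenesis and immature neurons, 6 were lower in the EZ of all 4 mice (12.2% of all genes were) and 5 were lower at an unadjusted p under 0.05 (6.51% of all genes). The median log2FC was -0.52, or -0.27 without mouse 27. By mouse the median difference was -1.02, -0.24, -0.16 and -0.43 in mice 27, 36, 14 and 40. Dcx, the microtubule protein of newborn granule cells, was at 5.21, 42.7, 38.7 and 33 CPM in the EZ and 47.5, 58.1, 52.5 and 59.6 CPM in the PIZ. The groups did not overlap, but the gene did not pass the threshold (log2FC -1.13 ± 0.28, adjusted p = 0.0367). In saline mice Dcx was at 27.9 to 32.1 CPM in the EZ and 26.4 to 34.2 CPM in the PIZ, so 3 of the 4 kainate EZ values exceeded every saline EZ value and all 4 kainate PIZ values exceeded every saline value. Sox11, a transcription factor of the same cells, had 23.6, 38.2, 33.7 and 38.1 CPM in the EZ and 39.1 to 57.9 CPM in the PIZ, without overlap (log2FC -0.56 ± 0.18, adjusted p = 0.122).

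Glutamate receptor and voltage-gated channel genes also had their lowest median difference in mouse 27. The 22 glutamate receptor genes had medians of -1.20, 0.01, -0.11 and -0.21 in mice 27, 36, 14 and 40, and the 28 voltage-gated channel genes -0.80, -0.0039, -0.05 and -0.19. The 12 GABA-A receptor genes had medians of -0.30, 0.05, 0.05 and -0.22, with mouse 40 close to mouse 27. Gria1, an AMPA receptor subunit, was at 230 CPM in the EZ of mouse 27 and at 974 to 1136 CPM in the other 7 libraries (log2FC -0.54 ± 0.32, adjusted p = 0.374). Cacna1e, a voltage-gated calcium channel, was at 79.3 CPM in the EZ of mouse 27 and at 527 to 661 CPM in the others (log2FC -0.77 ± 0.40, adjusted p = 0.324). Activity genes went the other way in the same library. The medians of 15 immediate early genes were 2.25, 0.22, 0.05 and 0.10, and Fos, the prototype of the group, was at 71.1, 5.17, 5.04 and 10.4 CPM in the EZ and 2.63 to 4.88 CPM in the PIZ, without overlap (log2FC 1.67 ± 0.51, adjusted p = 0.101). Npas4, induced by calcium entry, had 65.1 CPM in the EZ of mouse 27 and 3.34 to 8.98 CPM in the other 7 libraries. Bdnf, the growth factor of activated granule cells, had 613, 64.1, 60.3 and 90.9 CPM in the EZ against 60.5 to 124 CPM in the PIZ (log2FC 0.66 ± 0.32, adjusted p = 0.295). The neuropeptide genes Scg2 and Penk had 2486 and 732 CPM in the EZ of mouse 27, against 211 to 276 and 31.7 to 73.1 CPM in the other 7 libraries.

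**Figure D3:**
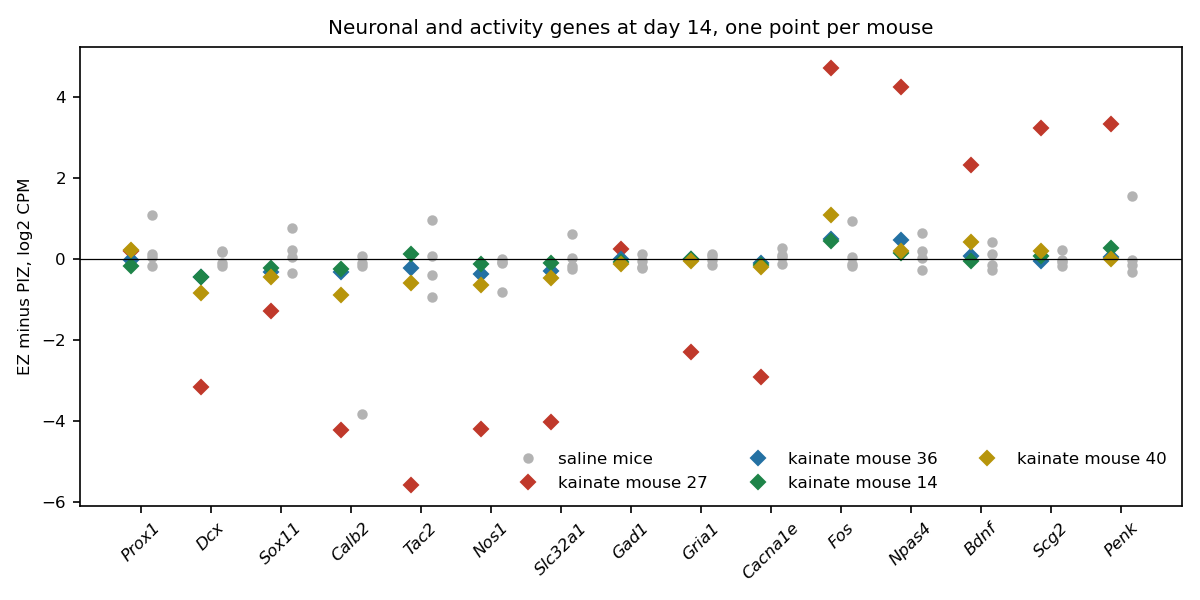
EZ minus PIZ difference (log2 CPM, vertical axis) of 15 neuronal and activity genes at day 14, 1 point per mouse, with kainate mice 27, 36, 14 and 40 as colored diamonds and saline mice as gray circles. Mouse 27 lies far below the other kainate mice for Dcx, Calb2, Tac2, Nos1, Slc32a1, Gria1 and Cacna1e and far above them for Fos, Npas4, Bdnf, Scg2 and Penk, while Prox1 and Gad1 lie near 0 in all 4; 1 saline mouse is at -3.84 for Calb2.

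Neuropeptide genes had a list median of 0.03 with members in both directions. Gal (galanin) was at 1.5, 0.225, 0.403 and 0.376 CPM in the EZ and 4.87, 0.897, 0.997 and 1.31 CPM in the PIZ, a difference of -1.14 in mouse 14 and -1.59 to -1.65 in the other 3 that did not pass the test at these low levels (log2FC -1.68 ± 0.50, adjusted p = 0.096). Tac2 (neurokinin B) was at 0.136 CPM in the EZ and 10.7 CPM in the PIZ of mouse 27 and at 2.08 to 3.83 CPM in the other 6 libraries.

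Matrix, growth factor, Wnt and metabolic lists had 0 called genes. The 20 matrix remodeling genes had a median of 1.63 in mouse 27 and of -0.02 to 0.03 in the others. Mmp3 (stromelysin), a protease of that list, had 111 counts in the EZ of mouse 27, 1 in that of mouse 40 and 0 in the other 6 libraries. Plaur, the urokinase receptor, was at 4.35, 0.506, 0.302 and 2.01 CPM in the EZ and 0.181 to 0.384 CPM in the PIZ (log2FC 2.27 ± 0.56, adjusted p = 0.0386). Sparc, an abundant matricellular protein, had a log2FC of 0.71 ± 0.24. The TGF-beta receptors Tgfbr1 and Tgfbr2 had log2FC of 0.73 ± 0.19 and 1.16 ± 0.31 (adjusted p = 0.0466 and 0.0538) and were higher in the EZ of all 4 mice. The 55 Wnt genes that the study lists had a median of -0.02, with 5 higher and 4 lower at an unadjusted p under 0.05 (10.5% and 6.51% of all genes), which is near the share over all genes, and since the study chose that list on these samples it is not independent of them. The 14 oligodendrocyte genes had medians of 0.90, 0.48, 0.38 and -0.18 by mouse, with Mbp, the myelin basic protein, at a log2FC of 0.48 ± 0.26. Cholesterol synthesis genes were an exception to the pattern of mouse 27, since their medians were -0.15, -0.25, -0.19 and -0.66 in mice 27, 36, 14 and 40, and 9 of 12 were lower in all 4 mice, beside 12.2% of all genes.

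No gene passed in the lower direction. The lowest p was that of the predicted gene Gm34006 (log2FC -2.37 ± 0.52, adjusted p = 0.0189), and another predicted gene, Gm45630, had a log2FC of -2.07 ± 0.47 (adjusted p = 0.0242). Both lie outside the naming rule, which passes over predicted genes, and were chosen after their values were seen. Gm34006 was called by DESeq2 and in the model without the mouse block, and Gm45630 by limma-voom. Zbtb7a, a transcriptional repressor, was at 55.3, 80.5, 79.0 and 82.8 CPM in the EZ and 79.0, 91.6, 98.3 and 93.7 CPM in the PIZ (log2FC -0.30 ± 0.07, adjusted p = 0.0193). Osbpl5, a lipid transfer protein, Nhlh2, a neuronal transcription factor, and Etaa1os, an antisense transcript, followed with log2FC of -0.48, -0.80 and -1.21. Nhlh2 was at 1.99 to 2.67 CPM in the EZ and 3.76 to 4.57 CPM in the PIZ without overlap. Evc2, a ciliary protein of hedgehog signaling, was at 6.25, 27.4, 32.2 and 16.0 CPM in the EZ and 30.8, 35.8, 40.1 and 32.3 CPM in the PIZ (log2FC -0.96 ± 0.24, adjusted p = 0.0393). The remaining genes of this group, Lrrc75b, Dok4, Zfhx2os, Apc2, Zfp618 and Efnb1, had log2FC between -1.03 and -0.41 and adjusted p between 0.0393 and 0.048.

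In saline mice of day 14 the same contrast asks what the injection itself left behind. No gene was called there (smallest adjusted p = 0.134, for Cst7), with 758 genes at an unadjusted p under 0.05, while DESeq2 called 1 gene, Cst7. Of the 111 genes raised in kainate mice, 53 were higher in the EZ of all 4 saline mice, beside 9.90% of all genes, and 101 had a positive log2FC. The median log2FC of the 111 was 0.54 in saline mice, and by mouse their median difference was 0.37, 0.56, 0.49 and 0.35 in mice 24, 28, 39 and 31, against 0.00 to 0.01 over all genes. Cst7 was at 0.738 to 2.40 CPM in the saline EZ and 0.0453 to 0.208 CPM in the saline PIZ (log2FC 3.79 ± 0.64). C3 was at 0.394 to 1.22 CPM in the saline EZ and 0.0550 to 0.226 CPM in the saline PIZ, and C4b at 38.9 to 41.9 and 22.2 to 31.1 CPM, so that both were separate between sides in saline mice as well. B2m was at 70.5 to 98.2 CPM in the saline EZ and 59.0 to 72.6 CPM in the saline PIZ.

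**Figure D4:**
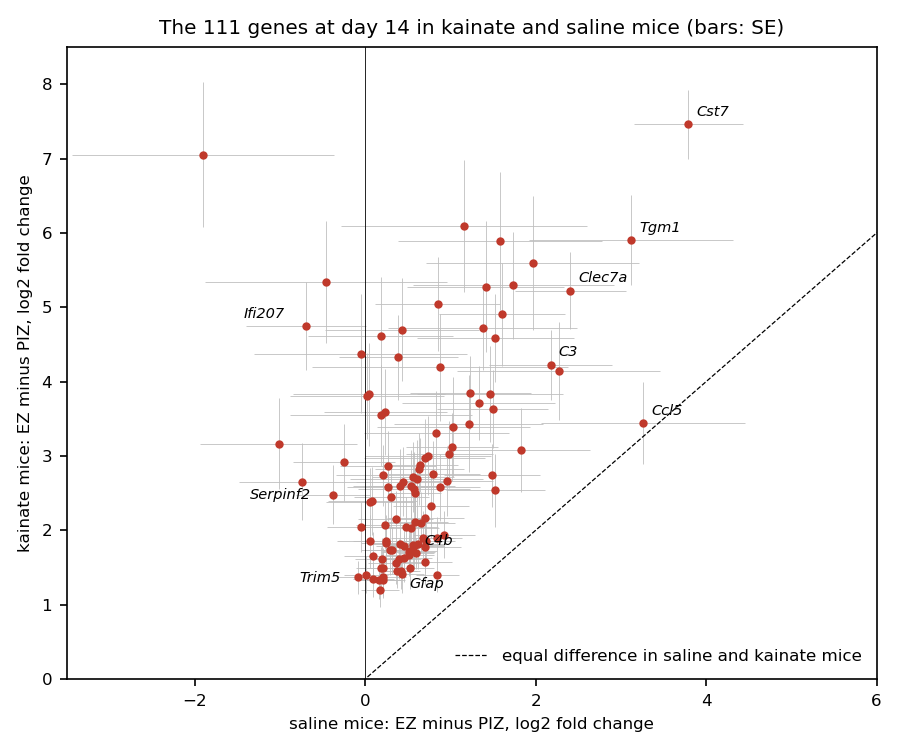
Log2 fold change of EZ over PIZ at day 14 in kainate mice (vertical axis) and in saline mice (horizontal axis) for the 111 genes called in kainate mice, with bars of 1 SE and the dashed line of equal values. Most points lie to the right of 0 in saline mice (101 of 111), Cst7 is highest in kainate mice with 7.46 and has 3.79 in saline mice, and Ifi207, Serpinf2 and Trim5 lie left of 0.

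The test of the difference between the kainate and the saline side effect at day 14 called 0 genes in edgeR (0%). Its smallest adjusted p was 0.196, 1611 genes (7.53%) had an unadjusted p under 0.05, and DESeq2 called 1 gene, Ifi207. These comparisons share the kainate libraries, so the values of the 2 treatments are given side by side. Ifi207 had a log2FC of 4.75 in kainate and -0.69 in saline mice (difference 5.44 ± 0.94, adjusted p = 0.196). Serpinf2, the plasmin inhibitor, had 48.1, 1.29, 1.87 and 5.72 CPM in the kainate EZ and 0.634 to 3.44 CPM in the kainate PIZ, and log2FC of 2.48 and -0.38 in kainate and saline mice (difference 2.86 ± 0.59, adjusted p = 0.534). For Trim5, a restriction factor, the log2FC were 1.37 and -0.09 (difference 1.46 ± 0.33), and for Lgals3bp 2.50 and 0.58 (difference 1.92 ± 0.44), each with an adjusted p of 0.56. One saline mouse, 39, had a wider spread over all genes than the others (median absolute difference 0.26 against 0.11 to 0.14) and a granule cell median of 1.20.

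The 111 genes were also compared between sides in the mice of days 7 and 3. At day 7, 110 of them were called higher in the EZ, beside 17.5% of all genes, and at day 3, 65, beside 5.75%. Their median log2FC was 1.20, 2.93 and 2.58 on days 3, 7 and 14. The medians of single mice spanned 0.99 to 1.51, 2.18 to 4.34 and 1.15 to 3.71 on the same days, so that mice 36, 14 and 40 lay below every mouse of day 7 and mouse 27 within their range.

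**Figure D5:**
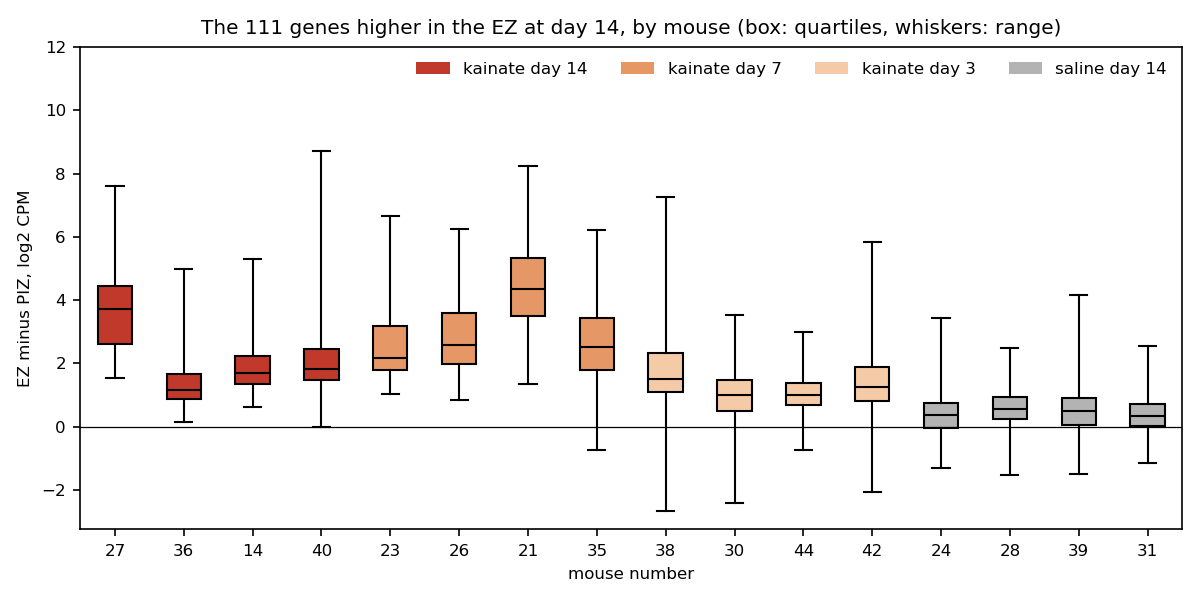
EZ minus PIZ difference (log2 CPM) of the 111 genes raised at day 14, as 1 box per mouse (line: median, box: quartiles, whiskers: range) for kainate mice of days 14, 7 and 3 and saline mice of day 14. The medians are 3.71, 1.15, 1.71 and 1.82 in the day 14 kainate mice and 0.35 to 0.56 in the saline mice.

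At an unadjusted p under 0.05 the side effect differed between day 14 and day 7 for 6072 of the 21390 genes. The threshold of a call was passed by 10 genes (0.0468%), 1 of them larger and 9 smaller at day 14. Cck (cholecystokinin), a peptide of interneurons and mossy cells, was the larger one, with a log2FC of 0.05 at day 14 and -1.77 at day 7 (difference 1.82 ± 0.24, adjusted p = 0.00142). Ncan (neurocan), a perineuronal matrix proteoglycan of astrocytes, had -0.07 at day 14 and 1.05 at day 7 (difference -1.13 ± 0.14, adjusted p = 0.00131). Rnf144a, a ubiquitin ligase, Cbfb, the partner of RUNX factors, and Fgfr3, an astrocyte growth factor receptor, differed by -0.75 ± 0.10, -1.01 ± 0.14 and -0.66 ± 0.10. The count was 1690 without mouse 27, 613 without mouse 23 of day 7, 26 without mouse 26, and 4, 2, 0, 4 and 3 without mice 21, 35, 36, 14 and 40.

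Between day 14 and day 3 the side effect differed for 2754 genes at an unadjusted p under 0.05. The threshold of a call was passed by 16 genes (0.0748%), 7 larger and 9 smaller at day 14. Cst7 had 7.46 at day 14 and 2.11 at day 3 (difference 5.35 ± 0.57, adjusted p = 4.6e-05). Lag3 and Glycam1, a mucin-like ligand of selectin, had 1.89 and 3.59 at day 14 and -0.71 and -1.17 at day 3 (differences 2.60 ± 0.39 and 4.76 ± 0.70), and Them4, a mitochondrial thioesterase, had 0.03 and -0.88 (difference 0.91 ± 0.13). Glycam1 was at 11.7, 0.955, 1.01 and 2.09 CPM in the EZ and 0.128 to 0.526 CPM in the PIZ at day 14. In the other direction, Hmcn2, an extracellular hemicentin, had -0.34 at day 14 and 3.28 at day 3 (difference -3.61 ± 0.38, adjusted p = 4.6e-05). Spred1, an inhibitor of Ras signaling, differed by -1.04 ± 0.14, Cbfb by -0.95 ± 0.14 and Slc12a3, a sodium chloride cotransporter, by -2.51 ± 0.40. The count was 85 without mouse 44 of day 3 and 48 without mouse 27, and 3, 7, 3, 6, 4 and 4 without mice 38, 30, 42, 36, 14 and 40.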

How the data were processed

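RNA sequencing counts of 48 dorsal dentate gyrus libraries from 24 mice were used. The authors trimmed paired stranded reads with fastp 0.20.1, aligned them to GRCm39 with HISAT2 2.2.1 and assigned them with featureCounts (Subread 1.6.4) to the genes of Gencode M28, per the submitters' processing notes and the methods, and deposited raw integer counts per gene and library without normalization. Multi-mapping reads were counted at the primary alignment. Symbols and positions came from Gencode M39, which matched 98.9% of 55357 identifiers.

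With edgeR 4.0.16 in R 4.3.3, genes were filtered by filterByExpr (21390 kept, with 99.9% of counts), scaled by TMM and fitted in 1 quasi-likelihood model of all 48 libraries with mouse as a block and an EZ minus PIZ effect per treatment and day (18 residual degrees of freedom). Both sides came from the same mouse. The deviations of their log2 CPM from the mean of their own treatment, side and day group were correlated over genes. The correlation was 0.188 to 0.349 in the 4 kainate mice of day 14 (-0.0536 to 0.376 over all 24 mice). Calls needed a fold change above 1.5 together with p under 0.01 after Benjamini-Hochberg adjustment. SE is the absolute log2FC divided by the square root of F. CPM values are TMM-scaled, log2 CPM of single libraries have a prior count of 2, and a group was taken to be at the floor when none of its libraries exceeded 3 counts. The fit was tested on simulated data.

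Genes were named by rule: the 12 smallest p per direction, the 4 smallest per direction in each difference of side effects, and per list the 2 most abundant members and up to 4 with the smallest p, passing over predicted genes; not all are printed, and some are not reported here. Raised members with a printed promoter are also named. The comparison, the lists and the naming rule were chosen with earlier results of these data known. Alternatives were DESeq2 1.42.0, limma-voom 3.58.1 with quality weights, no mouse block, only the compared groups, only the kainate libraries, no filter, scaling by RLE or by library size alone, at least 10 counts in every library, adjusted p under 0.05, glmTreat against a fold change of 1.5, and each mouse left out.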

Additional observations from a re-analysis of the deposited data

Results flagged for a closer look

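The 4 EZ minus PIZ differences of day 14 kainate mice were searched for a mouse apart from the other 3 (Dixon's criterion at 95%) over 119 values, of which 28 were found. Chance gives about 1 in 20 for a single value. The 119 values come from the same 4 mice and include lists beside their own members. They are not independent, so 28 of 119 against 1 in 20 does not measure an excess. In 27 of the 28 the mouse was number 27.

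By list, mouse 27 stood apart for chemokines and cytokines (median difference 3.84), infiltrating leukocytes (2.77), reactive astrocytes (2.56), immediate early genes (2.25), matrix remodeling (1.63) and choroid plexus genes (-2.67). Among genes with higher EZ values its differences were 5.81 for Mmp3 (111 counts against 0, so that the prior count sets this size and it is no estimate of the fold), 4.71 for Fos, 4.34 for Cxcl10, 4.25 for Npas4, 3.88 for Ccl5, 3.32 for Penk, 3.23 for Scg2, 3.12 for Aif1 (3.115 before rounding), 2.64 for Tgfbr2, 2.57 for Irgm1, 2.41 for Aspg and 1.74 for Tgfbr1. Among genes with lower EZ values they were -5.57 for Tac2, -4.21 for Calb2, -4.19 for Nos1, -4.02 for Slc32a1, -3.17 for Dcx, -2.92 for Cacna1e, -2.30 for Gria1, -1.45 for Lrrc75b and -1.01 for Osbpl5. The remaining case was Gal, where mouse 14 (-1.14) was nearer to 0 than the other mice. What set mouse 27 apart was not tested.

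The side effect of kainate differed from that of day 7 in 10 genes and from that of day 3 in 16 genes by the test of the difference itself. Against day 7 the named ones were Cck (1.82), Ncan (-1.13), Cbfb (-1.01), Rnf144a (-0.75) and Fgfr3 (-0.66). Against day 3 they were Cst7 (5.35), Glycam1 (4.76), Lag3 (2.60), Them4 (0.91), Cbfb (-0.95), Spred1 (-1.04), Slc12a3 (-2.51) and Hmcn2 (-3.61).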

How the results depend on the processing

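The number of genes called between EZ and PIZ in kainate mice of day 14 was 372 at an adjusted p under 0.05, 344 with DESeq2, 429 without the replicate block (mice unpaired), 229 without a filter, 42 with glmTreat, 20 with at least 10 counts in every library, 1 (Cst7) with only the kainate libraries and 0 with only the compared groups, and 4 to 149 with a mouse left out. Of the 111 genes, 108 were shared with DESeq2, 105 with the unpaired model and 90 with voom, which called 122. DESeq2 also called 4 lower genes, including Dcx. Against saline day 14, and within saline mice, DESeq2 called 1 gene each, the other alternatives and every mouse left out 0. Against day 7 the counts were 423 at an adjusted p under 0.05, 391 with DESeq2, 283 with voom, 26 without a filter, 1 unpaired, 0 with glmTreat and in both smaller models, and 0 to 1690 with a mouse left out. Against day 3 they were 48, 81 and 729 at an adjusted p under 0.05, with DESeq2 and with voom, 10 unpaired, 8 with at least 10 counts, 2 with glmTreat, 0 in both smaller models and 3 to 85 with a mouse left out. Of 38 raised genes named, 34 lost the call without mouse 27. Directions turned for 4 of 102 named values, with voom Slc1a2 (0.0842), Gad1 (-0.0518), Prox1 (-0.0321) and Cx3cl1 (-0.0111). With 1 mouse left out, Slc1a2 ran from -0.118 to 0.0778, Gad1 from -0.0717 to 0.0564, Cx3cl1 from -0.0329 to 0.04998 and Prox1 from -0.000186 to 0.135, all turning without mouse 27 except Prox1, which turned without mouse 40. The cause of these shifts was not tested, other than the fewer libraries or genes in the smaller models. A gene under about 3 counts per library could not be measured at this depth.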
